A study of Mus musculus with 29 samples.

Results

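Collagens are the triple-helical proteins that give the extracellular matrix its strength, and their transcripts were followed in the colon of mice with acute and chronic colitis. All probe sets with a single gene symbol made of Col, a type number, the letter a and a chain number were taken, which gave 46 probe sets. Where a gene had more than 1, the probe set with the highest mean over all arrays was kept, so that 44 collagen genes of 19938 genes with 1 symbol were described, out of 35511 probe sets in all. Col6a5 and Col6a6 are the genes with a second probe set. The 44 genes comprise 11 fibrillar chains, 8 basement membrane chains and 25 others.

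The mice were C57BL6J females with a label age of 6 weeks, which the methods give as the age at the start of a study in which all mice were age-matched at sacrifice. Colitis was induced with dextran sodium sulphate (DSS), a polymer given in drinking water that injures the colonic epithelium. Control mice (5 arrays, replicates A1, A2, A5, L1 and L2) drank normal water throughout. Acute colitis mice (4 arrays, B2, B3, B4 and C3) had DSS for 7 days without recovery, and 1 further acute array was not analysed here. The 1-cycle group (5 arrays, J1, J5, K1, K2 and K3) had DSS for 7 days and then 2 weeks of normal water. The 2-cycles group (5 arrays, D4, D5, E2, E3 and E4) had 2 such periods of DSS and water. The 3-cycles group (5 arrays, F1, F3, F5, G2 and G3) had 3 of them. The recovery group (5 arrays, M1, M3, M5, N2 and N3) had 2 cycles and 3 additional weeks of normal water. By the methods, the DSS percentage was higher in cycles 2 and 3 than in the initial administration. The 2-cycles, 3-cycles and recovery groups thus differ from the acute and 1-cycle groups in DSS percentage as well. Each array holds RNA of 1 mouse, from a frozen piece of the part of the colon with most infiltrate, so that the groups may differ in the tissue that was taken as well as in its expression. Values below are log2 expression values made with RMA, an array method that corrects background, brings all arrays to 1 distribution and summarises the probes of a probe set, and within a group they follow the order of replicates given here.

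A fibril-forming collagen molecule is wound from 3 alpha chains, coded by 1 or more genes, and is trimmed outside the cell before it packs into fibrils that lysyl oxidases crosslink. Type IV collagen forms a sheet-like network in basement membranes under epithelium, around vessels and around muscle fibres, whereas other types coat fibrils, form beaded filaments or anchor stratified epithelium. In the gut wall, fibroblasts, myofibroblasts and smooth muscle cells are the main producers, and fibrillar collagen is the main component of a fibrotic scar.

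RefSeq promoter sequence (GRCm38.p6) was at hand for 35 of the 44 collagen genes. The 250 bases before the annotated start are shown for Col1a2, which rose in every group that had a recovery period, for Col3a1, which passed in no comparison, for Col8a1, which was lower in every DSS group, and for Col17a1, which was higher after additional recovery. They lie at chr6:4505368-4505617 (plus strand), chr1:45311288-45311537 (plus strand), chr16:57754738-57754987 (minus strand) and chr19:47692043-47692292 (minus strand), and no other gene of the RefSeq table overlaps them. Capitals mark matches, on either strand, to TATAAA, known as the TATA box, to the promoter element CCAAT, and to the letters of the GC box, which are GGGCGG.
Col1a2: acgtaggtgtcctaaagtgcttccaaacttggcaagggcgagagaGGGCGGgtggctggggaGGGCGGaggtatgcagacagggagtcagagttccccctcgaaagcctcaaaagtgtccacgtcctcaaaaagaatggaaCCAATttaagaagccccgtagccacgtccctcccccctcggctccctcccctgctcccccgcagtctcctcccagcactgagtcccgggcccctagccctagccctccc
Col3a1: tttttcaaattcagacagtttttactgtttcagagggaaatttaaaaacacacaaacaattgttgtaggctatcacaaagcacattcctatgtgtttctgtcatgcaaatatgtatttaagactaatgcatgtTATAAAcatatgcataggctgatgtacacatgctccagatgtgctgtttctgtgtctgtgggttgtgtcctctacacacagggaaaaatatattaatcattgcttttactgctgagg
Col8a1: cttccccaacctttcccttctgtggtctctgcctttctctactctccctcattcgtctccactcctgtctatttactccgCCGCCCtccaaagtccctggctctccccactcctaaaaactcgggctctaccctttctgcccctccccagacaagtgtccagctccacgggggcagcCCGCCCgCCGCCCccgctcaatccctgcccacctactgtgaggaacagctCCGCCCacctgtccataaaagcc
Col17a1: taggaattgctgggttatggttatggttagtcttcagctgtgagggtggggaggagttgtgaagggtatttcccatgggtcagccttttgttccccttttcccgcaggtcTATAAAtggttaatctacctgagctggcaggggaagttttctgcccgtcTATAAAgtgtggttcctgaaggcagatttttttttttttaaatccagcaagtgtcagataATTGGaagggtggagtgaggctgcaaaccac
The Col1a2 stretch holds a CCAAT match from 109 to 105 bases before the start and 2 GC box matches farther out, and that of Col8a1 holds 4 GC box matches, all on the opposite strand. Col3a1 has a TATAAA match from 117 to 112 bases before the start, and Col17a1 has 2 such matches and a CCAAT match on the opposite strand. Over the same window TATAAA occurred in 14.3% of the 35 collagen genes and in 14.3% of 27025 genes with a promoter in the table, CCAAT in 37.1% and 37.5%, and GGGCGG in 60.0% and 35.4%. A match describes these letters and is not a binding site. Some collagen genes are next to each other in the genome, among them Col3a1 with Col5a2, Col6a1 with Col6a2, and Col6a4, Col6a5 and Col6a6 in a row. The annotated starts of Col4a1 and Col4a2 are 21 bases apart and those of Col4a5 and Col4a6 are 1343 bases apart, with the genes of each pair running in opposite directions.

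Before the groups were compared, the arrays themselves were examined. Medians of the 29 arrays ranged from 6.02 to 6.14 (log2), and markers of colonic epithelium such as Muc2 and Krt8 were bright in every group, with an array mean of 8 such markers between 10.96 and 11.81. The arrays fall into 2 sets by 1 probe set without a gene symbol, which was at most 8.14 in 14 arrays (the low set) and at least 11.09 in 15 (the high set). Of the 12101 probe sets without a symbol, it was picked for the widest gap that leaves at least 10 arrays on each side. A division into 2 sets was therefore sought, and it rests on this probe set alone. The low set holds every control and 1-cycle array, the high set holds every array of 3 cycles and recovery, and acute colitis has 2 of each and 2 cycles has 2 low and 3 high arrays. What the sets are is not stated in the sources used here, and for 3 cycles and recovery the set and the group can be told apart only through the acute and 2-cycles arrays. Groups were compared with limma in 1 fit of all arrays, and a probe set is said to have passed where its p, adjusted for all 35511 probe sets by Benjamini-Hochberg, was under 0.05.

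Against controls, collagen genes rose more often than they fell in the chronic groups, while acute colitis had rises and falls. Of 44 collagens, 5 were higher and 6 lower in acute colitis, beside 11.4% and 11.6% of all probe sets. After 1 cycle 6 were higher and 2 lower (3.4% and 3.54% of all probe sets), after 2 cycles 8 and 1 (3.08% and 2.51%), after 3 cycles 16 and 1 (8.81% and 9.26%), and after additional recovery 13 and 1 (6.05% and 6.61%). As a share of the collagens, the higher calls were thus 11.4% in acute colitis, level with the array as a whole, and 13.6%, 18.2%, 36.4% and 29.5% in the 4 later groups. These 5 comparisons share the control arrays. Changes were small, and a fold change above 2 was reached only in acute colitis, by Col14a1 and Col8a1, both lower (1.4% of all probe sets were lower by that rule). Of the 44 genes, 24 passed in at least 1 comparison, and the other 20 had log2 differences between -0.105 and 0.274 against controls in all groups.

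**Figure D1:**
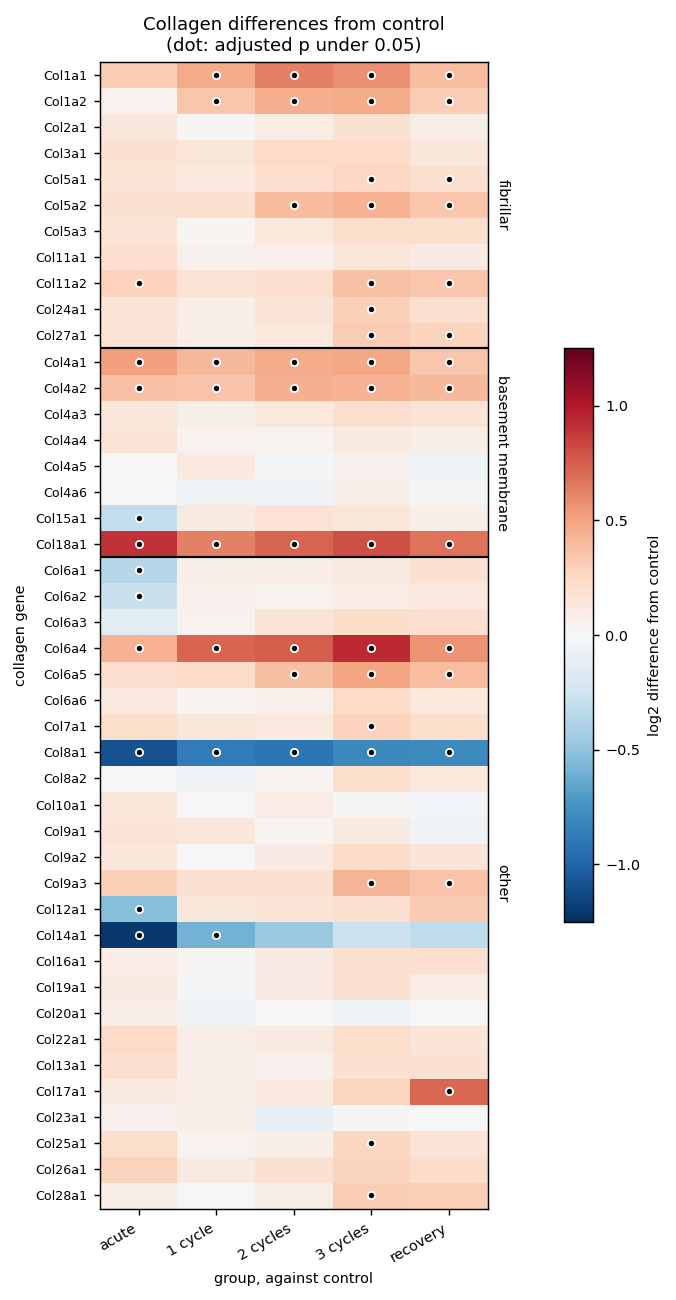
Log2 difference from control (colour) of the 44 collagen genes (rows, by class) in the 5 DSS groups (columns), with a dot where limma's adjusted p was under 0.05. Col18a1, Col4a1, Col4a2 and Col6a4 are higher and Col8a1 lower in all 5 groups, and most of the fibrillar dots are in the 3-cycles and recovery columns.

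For 3 cycles and recovery these counts depended on how the 2 array sets were treated. With the set as a term in the model, 2 collagens (Col18a1 and Col6a4) remained higher after 3 cycles and 0 after recovery, 0 were lower in either, and 9 and 8 had an unadjusted p under 0.05. Over all probe sets the shares fell as well, to 0.527% higher and 0.315% lower after 3 cycles and to 0.296% and 0.0929% after recovery. Differences shrank and standard errors widened in that model. Over the 14 rises lost after 3 cycles the median log2 difference moved from 0.39 to 0.18 and the median SE from 0.095 to 0.134, and 9 of the 14 fell below their former value divided by 1.5. Over the 13 rises lost after recovery the median difference moved from 0.36 to 0.30 and the median SE from 0.098 to 0.139, and 5 of the 13 fell below the same bound. After 3 cycles Col1a1 moved from 0.57 to 0.49 and Col24a1 from 0.30 to -0.01. The recovery count also fell to 7 without control replicate A1, to 8 without control replicate A5 and to 6 without recovery replicate M1. In acute colitis 8 collagens were higher and 6 lower when each array was centred on its median, and 12 were higher without acute replicate B2.

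By class, the fibrillar collagens had 1 of 11 higher in acute colitis, then 2, 3 and 7 after 1, 2 and 3 cycles and 6 after recovery, and 0 lower in any of these. The shares of all probe sets that were higher in these comparisons, 11.4%, 3.4%, 3.08%, 8.81% and 6.05%, stand beside these counts, and the 1 in acute colitis is near that level. With the array set in the model 0 fibrillar chains passed in acute colitis, after 3 cycles or after recovery, and 2 did after 1 and after 2 cycles. Their median log2 difference from control was 0.18, 0.12, 0.21, 0.30 and 0.22 in the same order, beside medians over all probe sets between -0.015 and 0.037, and with the array set it was 0.10, 0.12, 0.06, 0.10 and 0.09. The basement membrane collagens had 3 of 8 higher in each DSS group and 1 lower in acute colitis, with medians between 0.12 and 0.18. With the array set in the model Col4a1 and Col4a2 did not pass after 2 cycles, 3 cycles or recovery, and Col18a1 did not pass after recovery. Among the 25 others, 1 was higher and 5 lower in acute colitis, 1 and 2 after 1 cycle, 2 and 1 after 2 cycles, 6 and 1 after 3 cycles and 4 and 1 after recovery. With the array set Col6a4 alone of these remained higher after 3 cycles, and no chain did after recovery. The mean of the fibrillar class was 7.13 ± 0.08 (SD, n = 5) in controls and 7.45 ± 0.09 (SD, n = 5) after 3 cycles, without overlap of the arrays. Basement membrane means were 6.55 ± 0.06 (SD, n = 5) and 6.84 ± 0.09 (SD, n = 5) in these groups, also without overlap. For the other collagens the control mean was 6.76 ± 0.10 (SD, n = 5), the acute mean 6.75 ± 0.13 (SD, n = 4) and the 3-cycles mean 6.94 ± 0.05 (SD, n = 5). The lowest 3-cycles array of that class (6.891) was above its highest control (6.88).

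**Figure D2:**
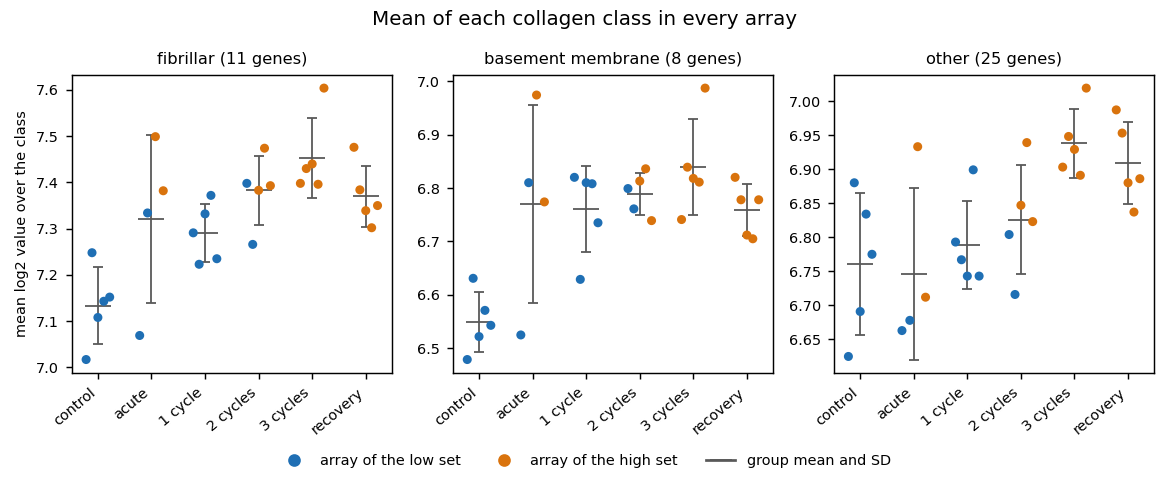
Mean log2 value over the genes of each class (vertical axis) in every array, by group (horizontal axis). Points are arrays coloured by array set, and bars are the group mean and SD. Fibrillar and basement membrane arrays after 2 cycles, 3 cycles and recovery are above all control arrays, as are those of the other collagens after 3 cycles.

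The type I chains, Col1a1 and Col1a2, make the most abundant fibrillar collagen of connective tissue. Col1a1 read 8.82, 9.30, 9.14, 9.07 and 9.18 in control arrays and 9.11, 9.49, 9.30 and 9.77 in acute arrays. Col1a1 in later groups was 9.58, 9.38, 9.92, 9.58 and 9.39 after 1 cycle, 9.92, 9.58, 9.78, 9.64 and 9.73 after 2 cycles, 9.68, 9.54, 9.61, 9.65 and 9.90 after 3 cycles, and 9.63, 9.41, 9.43, 9.43 and 9.52 after recovery. All arrays of the 4 later groups were above the highest control, whereas acute arrays overlapped with controls. Col1a1 rose by 0.47 ± 0.11 (log2, SE) after 1 cycle (1.38-fold, adjusted p = 0.00996), by 0.63 ± 0.11 after 2 cycles (1.55-fold, adjusted p = 0.000953), by 0.57 ± 0.11 after 3 cycles (1.49-fold, adjusted p = 0.00106) and by 0.38 ± 0.11 after recovery (1.3-fold, adjusted p = 0.0251), and its acute difference of 0.32 ± 0.12 did not pass (adjusted p = 0.0546). That acute difference did pass with a block on the label's letter, array weights, a trended robust prior or dim probe sets dropped (limma adjusted p = 0.0331 to 0.0497). It also passed without A2, B2, G3 or K1. The rise of Col1a1 after recovery did not pass without control replicate A1 or recovery replicate M1. Col1a2 read 9.12, 9.30, 9.17, 9.23 and 9.32 in control arrays and 8.97, 9.36, 9.34 and 9.41 in acute arrays. Col1a2 in later groups was 9.63, 9.48, 9.86, 9.56 and 9.36 after 1 cycle, 9.82, 9.61, 9.69, 9.61 and 9.69 after 2 cycles, 9.64, 9.68, 9.61, 9.68 and 9.85 after 3 cycles, and 9.72, 9.48, 9.49, 9.45 and 9.52 after recovery. Here too the later groups lay above all controls, while acute arrays were spread around the controls, with B2 lowest. Col1a2 rose by 0.35 ± 0.09, 0.46 ± 0.09 and 0.47 ± 0.09 (log2, SE) after 1, 2 and 3 cycles (adjusted p = 0.0115, 0.00168 and 0.000705) and by 0.30 ± 0.09 after recovery (adjusted p = 0.0207), against 0.04 ± 0.09 in acute colitis (adjusted p = 0.783). The recovery call of Col1a2 was lost without A1, A5 or M1, and within the low set alone, with 2 arrays of 2 cycles, both chains missed the threshold after 2 cycles (adjusted p = 0.0828 and 0.108) with log2 differences of 0.65 and 0.49. With the array set in the model the 3-cycles and recovery differences were 0.49 and 0.30 for Col1a1 and 0.40 and 0.23 for Col1a2, and did not pass. As all samples are bulk tissue, more cells of a type and more RNA per cell cannot be told apart here or in any of the comparisons that follow.

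Col3a1, the single chain of type III collagen that is laid down with type I in wounds and in the gut wall, passed in none of the comparisons. Col3a1 read 8.71, 8.91, 8.70, 8.71 and 8.83 in control arrays and 8.54, 9.34, 8.92 and 9.04 in acute arrays. Col3a1 in later groups was 8.88, 8.80, 9.25, 8.94 and 8.76 after 1 cycle, 9.05, 8.98, 9.05, 8.996 and 9.05 after 2 cycles, 9.03, 9.02, 8.90, 8.98 and 9.18 after 3 cycles, and 8.87, 8.73, 8.95, 8.94 and 9.07 after recovery. The 5 arrays after 2 cycles lay above all controls, and the acute arrays spanned a wider range than any other group. Its log2 difference was 0.25 after 2 cycles (95% confidence interval 0.04 to 0.47, adjusted p = 0.17) and 0.25 after 3 cycles (0.04 to 0.46, adjusted p = 0.0948), and it was 0.19 in acute colitis, 0.15 after 1 cycle and 0.14 after recovery. The interval after 2 cycles reaches the size of the Col1a2 rise in that group. Col3a1 did pass after 2 and 3 cycles when only the groups compared were fitted (limma adjusted p = 0.0274 and 0.0301). After 3 cycles it also passed when arrays were quantile normalised again (0.0489). Without acute replicate B2 it passed in acute colitis (0.0152) and after 3 cycles (0.0433).

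Type V collagen, which starts type I fibrils and sets their width, was represented by Col5a1, Col5a2 and Col5a3. Col5a1 read 7.04, 7.13, 7.06, 7.07 and 7.11 in control arrays and 6.97, 7.29, 7.40 and 7.36 in acute arrays. Col5a1 in later groups was 7.05, 7.22, 7.25, 7.33 and 7.15 after 1 cycle, 7.24, 7.16, 7.30, 7.44 and 7.33 after 2 cycles, 7.27, 7.33, 7.38, 7.32 and 7.41 after 3 cycles, and 7.35, 7.25, 7.32, 7.22 and 7.29 after recovery. All 3-cycles and recovery arrays were above the controls, by a small margin. Col5a1 rose by 0.26 ± 0.07 (log2, SE) after 3 cycles (adjusted p = 0.00918) and by 0.20 ± 0.07 after recovery, at the edge of the threshold (adjusted p = 0.049, lost when any 1 of 21 arrays was left out). Once the array set was modelled these differences were 0.06 (adjusted p = 0.845) and 0.004 (adjusted p = 0.995). Col5a2 read 6.50, 6.77, 6.51, 6.46 and 6.64 in control arrays and 6.41, 7.04, 6.83 and 6.80 in acute arrays. Col5a2 in later groups was 6.74, 6.72, 7.06, 6.69 and 6.73 after 1 cycle, 7.07, 6.87, 6.98, 6.90 and 7.03 after 2 cycles, 6.94, 7.02, 6.91, 6.94 and 7.23 after 3 cycles, and 6.96, 6.98, 6.97, 6.79 and 6.90 after recovery. Arrays of 2 cycles, 3 cycles and recovery lay above all controls. Col5a2 rose by 0.39 ± 0.09 (1.31-fold, adjusted p = 0.0103), 0.43 ± 0.09 (1.35-fold, adjusted p = 0.00249) and 0.34 ± 0.09 (1.27-fold, adjusted p = 0.0162) in these groups, and with the array set the differences were 0.36, 0.39 and 0.30 and did not pass (adjusted p = 0.101, 0.187 and 0.411). Among the minor fibrillar chains, Col11a2 was higher in acute colitis (1.22-fold), after 3 cycles (1.29-fold) and after recovery (1.27-fold), Col27a1 after 3 cycles (1.24-fold) and recovery (1.21-fold), and Col24a1 after 3 cycles (1.23-fold). Once the set was modelled none of these calls was kept, and the log2 differences in the same order were 0.16, 0.10 and 0.09 for Col11a2 and 0.16 and 0.13 for Col27a1. The acute call of Col11a2 was also lost in the low set (0.12), in 2 other alternatives and without any 1 of 5 arrays. Col24a1 is a dim probe set, and its log2 difference after 3 cycles was 0.30 without and -0.01 with the array set in the model. Col2a1, Col5a3 and Col11a1 did not pass in any group.

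Type IV collagen of nearly all basement membranes is built from the chains of Col4a1 and Col4a2, which share a promoter region. Col4a1 read 7.56, 7.97, 7.82, 7.86 and 7.54 in control arrays and 7.89, 8.68, 8.18 and 8.28 in acute arrays. Col4a1 in later groups was 8.27, 8.01, 8.37, 8.09 and 8.01 after 1 cycle, 8.34, 8.09, 8.30, 8.12 and 8.21 after 2 cycles, 8.28, 8.23, 8.10, 8.14 and 8.41 after 3 cycles, and 8.10, 8.004, 8.12, 8.02 and 8.24 after recovery. Acute replicate B3 was the highest array of all, and the later groups were above the controls. Col4a1 rose by 0.51 ± 0.12 (log2, SE) in acute colitis (1.42-fold, adjusted p = 0.0019), by 0.40 ± 0.11 after 1 cycle (1.32-fold, adjusted p = 0.0242), by 0.46 ± 0.11 after 2 cycles (1.38-fold, adjusted p = 0.0103), by 0.48 ± 0.11 after 3 cycles (1.4-fold, adjusted p = 0.00365) and by 0.35 ± 0.11 after recovery (1.27-fold, adjusted p = 0.0374). Col4a2 read 7.36, 7.72, 7.48, 7.58 and 7.40 in control arrays and 7.51, 8.19, 7.91 and 7.90 in acute arrays. Col4a2 in later groups was 7.96, 7.72, 8.09, 7.80 and 7.74 after 1 cycle, 8.11, 7.87, 7.93, 8.02 and 7.86 after 2 cycles, 7.92, 8.05, 7.86, 7.76 and 8.11 after 3 cycles, and 7.98, 7.79, 7.94, 7.85 and 7.99 after recovery. Acute replicate B2 and 1-cycle replicate J5 lay inside the control range, and the later arrays lay above it. Col4a2 rose 1.29-fold in acute colitis, 1.28-fold after 1 cycle, 1.36-fold after 2 cycles, 1.35-fold after 3 cycles and 1.32-fold after recovery (adjusted p = 0.0126, 0.03, 0.00671, 0.00429 and 0.01). The calls after 1 cycle were the least stable, since that of Col4a1 was lost without A1, J1, K1 or L2 and that of Col4a2 without those or A5. For Col4a1 after recovery, 7 of the 29 single arrays decided the call, and so did centring of the arrays. Within the low set of arrays, Col4a1 and Col4a2 did not pass in acute colitis, after 1 cycle or after 2 cycles, with log2 differences of 0.54, 0.40 and 0.47 for Col4a1 and 0.34, 0.35 and 0.48 for Col4a2. With the array set in the model they did not pass after 2 cycles, 3 cycles or recovery, with differences of 0.48, 0.52 and 0.38 for Col4a1 and 0.45, 0.43 and 0.41 for Col4a2. The chains of specialised basement membranes, Col4a3, Col4a4, Col4a5 and Col4a6, had log2 differences between -0.06 and 0.20 and passed in no group, and all 4 are dim probe sets.

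Col18a1 and Col15a1 code for the multiplexins, collagens attached to basement membranes whose ends are released as endostatin and endostatin-like fragments. Col18a1 read 6.81, 6.90, 6.82, 6.85 and 6.83 in control arrays and 7.28, 7.91, 7.91 and 7.87 in acute arrays. Col18a1 in later groups was 7.53, 7.30, 7.71, 7.42 and 7.40 after 1 cycle, 7.84, 7.33, 7.65, 7.43 and 7.62 after 2 cycles, 7.56, 7.63, 7.41, 7.80 and 7.83 after 3 cycles, and 7.54, 7.62, 7.37, 7.54 and 7.54 after recovery. No array of any DSS group reached down to the control range, and acute replicate B2 stood below the other 3 acute arrays. Col18a1 rose by 0.90 ± 0.12 (log2, SE) in acute colitis (1.87-fold, adjusted p = 2.83e-06), 0.63 ± 0.11 after 1 cycle (1.55-fold, adjusted p = 0.000774), 0.73 ± 0.11 after 2 cycles (1.66-fold, adjusted p = 0.000176), 0.80 ± 0.11 after 3 cycles (1.75-fold, adjusted p = 3.18e-05) and 0.68 ± 0.11 after recovery (1.6-fold, adjusted p = 0.000322). The first 4 of these calls were kept in every alternative and without any single array, and the recovery call was lost only with the array set in the model (adjusted p = 0.116). Col15a1 read 7.49, 7.34, 7.38, 7.42 and 7.28 in control arrays and 6.93, 6.88, 7.31 and 7.16 in acute arrays. Col15a1 in later groups was 7.58, 7.38, 7.73, 7.50 and 7.30 after 1 cycle, 7.57, 7.58, 7.40, 7.62 and 7.64 after 2 cycles, 7.47, 7.58, 7.53, 7.42 and 7.67 after 3 cycles, and 7.54, 7.34, 7.53, 7.36 and 7.55 after recovery. Acute arrays were the lowest, with B4 inside the control range. Col15a1 fell by 0.31 ± 0.09 (log2, SE) in acute colitis (adjusted p = 0.0113) and did not pass in later groups, where differences were 0.12, 0.18, 0.15 and 0.08. The fall was lost without B3 and in a fit of acute and control arrays alone.

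**Figure D3:**
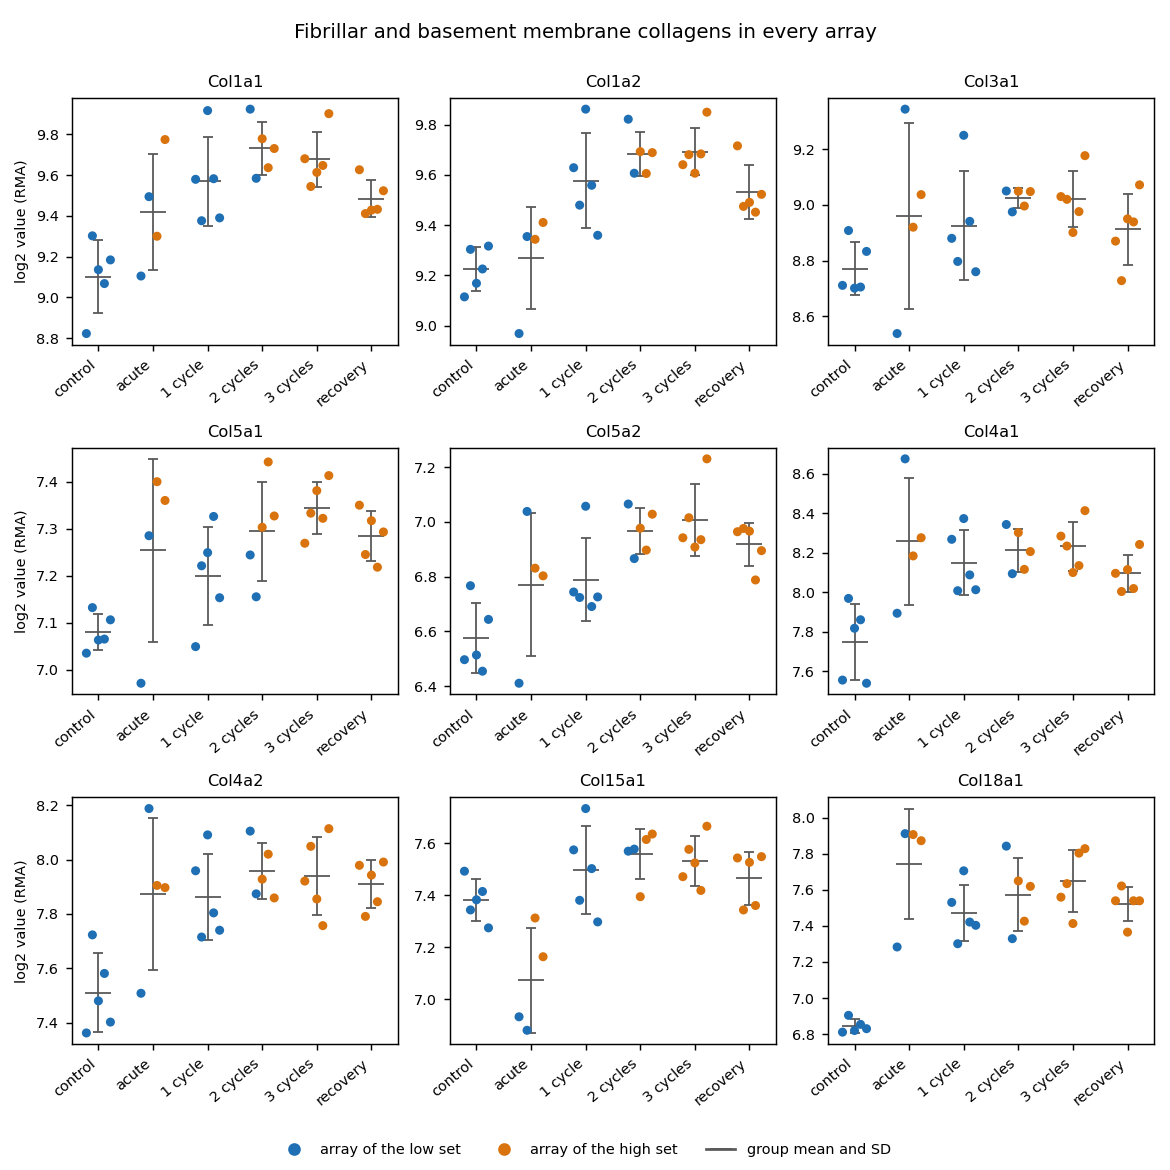
Log2 value (vertical axis, a separate range in each panel) of 5 fibrillar and 4 basement membrane collagens in every array, by group (horizontal axis). Points are arrays coloured by array set, and bars are the group mean and SD. Col18a1 in controls lies between 6.81 and 6.90, below every DSS array.

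Collagen VI, a beaded filament found around cells and between fibrils, is made of the chains of Col6a1, Col6a2 and either Col6a3 or 1 of the Col6a4 to Col6a6 chains. Col6a1 read 8.87, 8.93, 8.75, 8.98 and 9.02 in control arrays and 8.53, 8.58, 8.66 and 8.45 in acute arrays. Col6a1 in later groups was 9.02, 9.02, 9.28, 8.96 and 8.62 after 1 cycle, 8.94, 9.14, 8.92, 8.94 and 9.02 after 2 cycles, 9.01, 9.08, 9.02, 9.02 and 8.97 after 3 cycles, and 9.17, 8.94, 9.22, 9.09 and 9.08 after recovery. All 4 acute arrays were below all controls. Col6a1 fell by 0.35 ± 0.09 (log2, SE) in acute colitis (adjusted p = 0.00389). Col6a2 read 8.46, 8.57, 8.48, 8.61 and 8.57 in control arrays and 8.25, 8.24, 8.26 and 8.30 in acute arrays. Col6a2 in later groups was 8.57, 8.60, 8.81, 8.63 and 8.36 after 1 cycle, 8.48, 8.61, 8.54, 8.64 and 8.63 after 2 cycles, 8.65, 8.68, 8.70, 8.56 and 8.54 after 3 cycles, and 8.63, 8.53, 8.80, 8.63 and 8.71 after recovery. The acute arrays of Col6a2 lay close together and below every other array. Col6a2 fell by 0.27 ± 0.07 (log2, SE, adjusted p = 0.0042), and neither chain passed in a later group. In the low set alone the acute calls of Col6a1 and Col6a2 were lost, with log2 differences of -0.35 and -0.29 (adjusted p = 0.138 and 0.0925). Col6a3 read 8.02, 8.34, 8.10, 8.22 and 8.06 in control arrays and 7.81, 8.17, 7.95 and 8.12 in acute arrays. Col6a3 in later groups was 8.15, 8.18, 8.54, 8.14 and 7.93 after 1 cycle, 8.35, 8.25, 8.29, 8.38 and 8.29 after 2 cycles, 8.39, 8.48, 8.43, 8.28 and 8.32 after 3 cycles, and 8.38, 8.10, 8.59, 8.27 and 8.45 after recovery. Col6a3 arrays overlapped between all groups and controls, and its acute difference was -0.14 ± 0.10 (adjusted p = 0.37). Col6a4 rose in each DSS group, with control arrays between 6.61 and 7.05, acute arrays between 7.04 and 7.33 and 3-cycles arrays between 7.50 and 8.02. Its fold was 1.35 in acute colitis, 1.66 after 1 cycle, 1.69 after 2 cycles, 1.91 after 3 cycles and 1.48 after recovery (adjusted p = 0.00201, 3.84e-05, 1.84e-05, 1.68e-06 and 0.000412). Col6a4 kept its first 4 calls in every alternative and without any single array, and with the array set in the model the recovery call missed the threshold (adjusted p = 0.0529). Col6a5 was higher after 2 cycles (1.3-fold), 3 cycles (1.41-fold) and recovery (1.31-fold), but its second, dimmer probe set did not pass there (1.24-fold, 1.09-fold and 1.15-fold) and was lower in acute colitis (1.24-fold, adjusted p = 0.0354), so that the 2 probe sets of this gene disagree. The brighter one had, with the array set in the model, log2 differences of 0.24, 0.28 and 0.17, against 0.38, 0.50 and 0.39 without, and did not pass.

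Col12a1 and Col14a1 are fibril-associated collagens that sit on the surface of type I fibrils. Col12a1 read 7.97, 8.26, 8.03, 8.37 and 8.26 in control arrays and 7.63, 7.78, 7.35 and 7.82 in acute arrays. Col12a1 in later groups was 8.21, 8.38, 8.65, 7.98 and 8.35 after 1 cycle, 8.88, 8.09, 8.18, 8.19 and 8.40 after 2 cycles, 8.48, 8.35, 8.25, 8.19 and 8.62 after 3 cycles, and 8.57, 8.37, 8.58, 8.42 and 8.60 after recovery. The acute arrays were below all controls, and later groups overlapped with them. Col12a1 fell by 0.53 ± 0.14 (log2, SE) in acute colitis (1.45-fold, adjusted p = 0.00618), with an adjusted p of 0.0507 when the array set was in the model. In the low set alone its log2 difference was -0.47 (adjusted p = 0.177). Col14a1 read 8.30, 8.22, 7.92, 8.03 and 8.17 in control arrays and 7.07, 7.02, 7.05 and 6.53 in acute arrays. Col14a1 in later groups was 7.86, 7.67, 7.73, 7.42 and 7.00 after 1 cycle, 7.50, 7.90, 7.45, 7.75 and 7.71 after 2 cycles, 8.07, 7.89, 7.89, 7.71 and 7.72 after 3 cycles, and 7.86, 7.57, 8.30, 7.88 and 7.45 after recovery. The acute arrays were far below the controls, with C3 lowest, and the 1-cycle and 2-cycles arrays were also all below the controls. Col14a1 had the largest change of any collagen against controls, and fell by 1.21 ± 0.16 (log2, SE) in acute colitis (2.31-fold, adjusted p = 4.31e-06). It fell by 0.59 ± 0.15 after 1 cycle (1.51-fold, adjusted p = 0.0159, not passed without A1 or K3), and the differences after 2 cycles (-0.47), 3 cycles (-0.27) and recovery (-0.32) did not pass. The fall after 2 cycles did pass with only the groups compared, the letter block or dim probe sets dropped (limma adjusted p = 0.0186, 0.0399 and 0.0455). It also passed without D5, K3 or M5, and the fall after recovery passed without M5 (0.0488).

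Col8a1 codes for a chain of type VIII collagen, a short network collagen of vessel walls and other tissues. Col8a1 read 7.04, 8.74, 7.92, 8.36 and 8.09 in control arrays and 7.20, 6.87, 7.16 and 6.53 in acute arrays. Col8a1 in later groups was 7.21, 7.15, 7.32, 7.11 and 6.97 after 1 cycle, 6.80, 7.16, 7.28, 7.23 and 7.16 after 2 cycles, 7.38, 7.44, 7.30, 6.97 and 7.05 after 3 cycles, and 7.14, 7.01, 7.50, 7.27 and 7.25 after recovery. Controls varied widely, since A1 read 7.04, within the range of the DSS arrays, and the other 4 controls lay above all of these. Col8a1 fell by 1.09 ± 0.21 (log2, SE) in acute colitis (more than 2-fold, adjusted p = 0.0003), by 0.88 ± 0.19 after 1 cycle, 0.90 ± 0.19 after 2 cycles, 0.80 ± 0.19 after 3 cycles and 0.80 ± 0.19 after recovery (adjusted p = 0.00588, 0.00505, 0.00575 and 0.00862). When only the groups compared were fitted, the calls after 1, 2 and 3 cycles and recovery were lost. In the low set alone the calls in acute colitis and after 2 cycles were lost, with log2 differences of -0.99 and -1.05 (adjusted p = 0.0679 and 0.149). With the array set in the model those after 3 cycles and recovery were lost, at -0.85 and -0.84 (adjusted p = 0.168 and 0.208). The companion chain Col8a2 did not pass in any group.

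Col7a1 codes for the anchoring fibrils and Col17a1 for a transmembrane collagen of hemidesmosomes, both of which fix stratified epithelium to its base. Col7a1 read 6.44, 6.78, 6.60, 6.67 and 6.60 in control arrays and 6.65, 6.77, 7.20 and 6.74 in acute arrays. Col7a1 in later groups was 6.69, 6.75, 6.58, 6.93 and 6.84 after 1 cycle, 6.72, 6.63, 6.72, 6.90 and 6.74 after 2 cycles, 6.74, 6.90, 6.92, 6.89 and 7.06 after 3 cycles, and 7.06, 6.98, 6.60, 6.75 and 6.81 after recovery. Groups overlapped with controls in all cases. Col7a1 rose by 0.28 ± 0.10 (log2, SE) after 3 cycles (1.22-fold, adjusted p = 0.0417), a call that was lost when any 1 of 8 arrays was left out and with the array set in the model (0.11, adjusted p = 0.831). Col17a1 read 5.74, 5.99, 5.90, 5.97 and 5.87 in control arrays and 5.80, 5.85, 6.30 and 6.08 in acute arrays. Col17a1 in later groups was 5.96, 5.96, 5.91, 6.19 and 5.87 after 1 cycle, 6.05, 6.00, 5.97, 6.12 and 5.90 after 2 cycles, 5.82, 5.99, 5.98, 6.14 and 6.88 after 3 cycles, and 7.02, 6.88, 5.86, 6.35 and 6.96 after recovery. Recovery arrays were split, with M1, M3 and N3 high, N2 in between and M5 within the control range, and 3-cycles replicate G3 also stood high. Col17a1 rose by 0.72 ± 0.18 (log2, SE) after recovery (1.65-fold, adjusted p = 0.00926) and did not pass with the array set in the model (adjusted p = 0.412). Keratins of stratified squamous epithelium moved in the same arrays, since Krt5 read 12.15, 11.80, 5.52, 10.19 and 11.90 in the 5 recovery arrays and 10.91 in G3, against 5.48 to 5.91 in controls. All 8 squamous markers examined were higher after recovery, beside 6.05% of all probe sets, and 0 were higher in the other 4 groups. The array mean of these markers was 5.24 to 5.41 in controls and 5.21 to 9.51 after recovery. In M5, where Krt5 was at the control level, Col17a1 read 5.86. The part that squamous tissue in the samples has in the Col17a1 result was not tested.

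**Figure D4:**
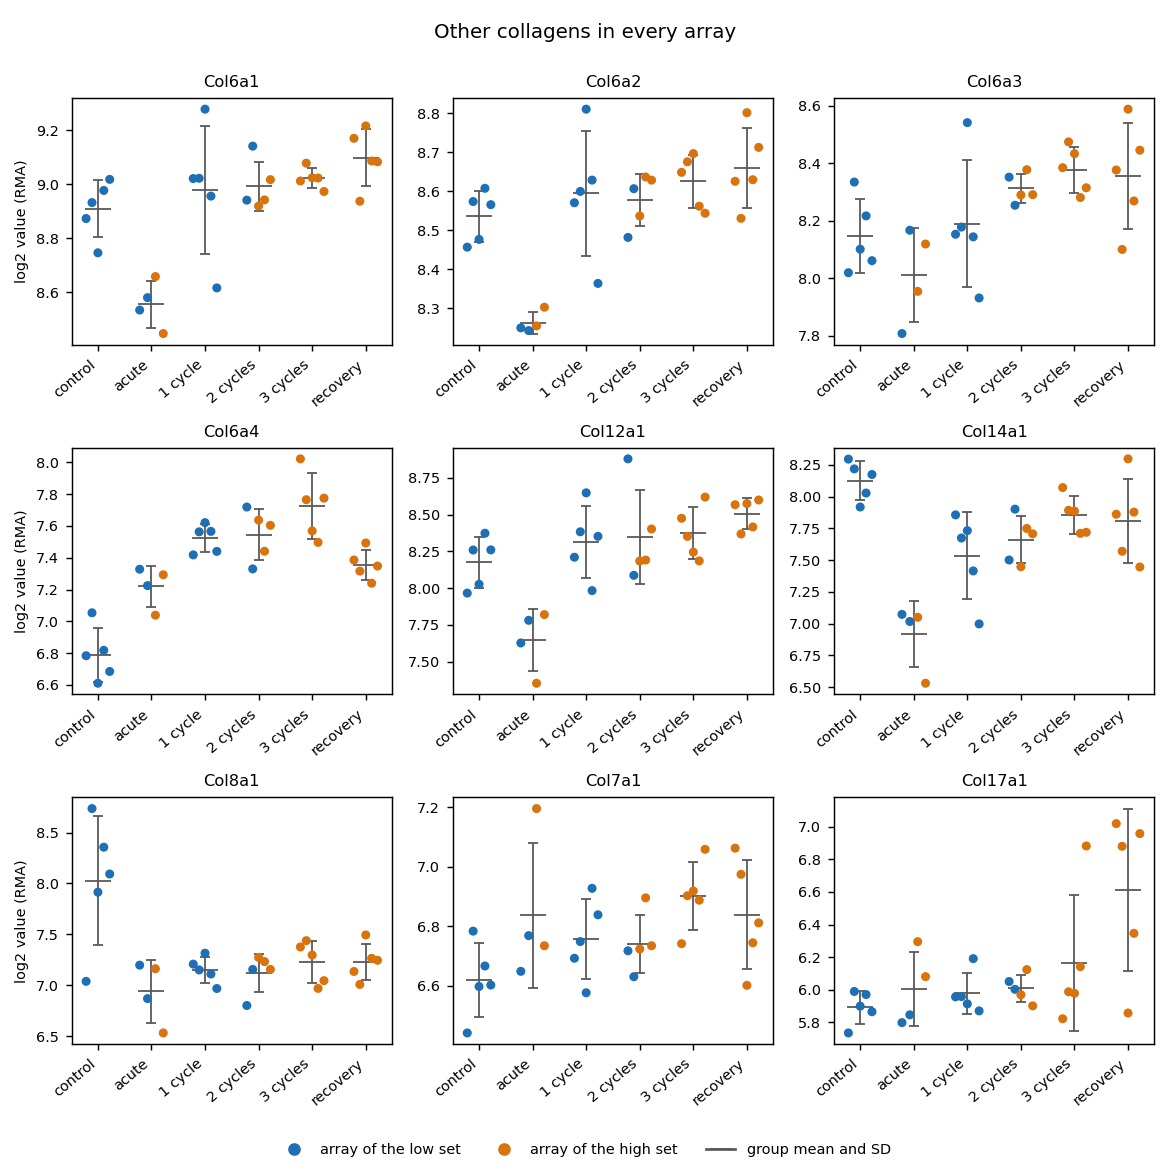
Log2 value (vertical axis, a separate range in each panel) of 9 other collagens in every array, by group (horizontal axis). Points are arrays coloured by array set, and bars are the group mean and SD. Acute arrays of Col6a1, Col6a2, Col12a1 and Col14a1 lie below all controls.

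The remaining passes were small. Col9a3, a chain of cartilage type IX collagen, was higher after 3 cycles (1.34-fold) and recovery (1.28-fold), and Col25a1 (1.21-fold) and Col28a1 (1.24-fold) after 3 cycles. With the array set in the model these calls were lost, with log2 differences of 0.20 and 0.13 for Col9a3, 0.03 for Col25a1 (adjusted p = 0.97) and 0.03 for Col28a1 (adjusted p = 0.971), and Col25a1 was also lost when any 1 of 10 arrays was left out. Col24a1, Col25a1 and Col28a1 are the 3 passing collagens below the median brightness of the array. All dim probe sets with 1 symbol shifted upwards after 3 cycles, by a median log2 difference of 0.07, while bright ones had a median of -0.04, and whether this bears on the 3 genes was not tested.

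The falls in acute colitis came together with lower levels of muscle genes. All 7 smooth muscle markers fell in acute colitis, with a median log2 difference of -1.76, and their array mean was 10.96 to 11.34 in controls and 9.23 to 10.21 in acute colitis. Myh11, the smooth muscle myosin, read 10.52, 10.12, 9.60 and 9.27 in the 4 acute arrays. Among the collagens that fell, Col14a1, Col6a1 and Col8a1 were lowest in C3, the array in which Myh11 was lowest. Col15a1 and Col6a2 were lowest in B3, and Col12a1 was lowest in B4. In the 3-cycles and recovery groups 0 of these 7 markers passed, and 1 (Smtn) was lower after 1 cycle. Of 7 fibroblast markers, Dpt and Lum fell in acute colitis, and Dcn, Pdgfra and Vim did not pass. Thy1 was the only higher marker of the 7 after 3 cycles, and Pdgfra and Thy1 were higher after recovery. In both groups the means of Dpt and Lum were below the control mean and those of the other markers above it, and 0 of the 7 passed as lower. Both groups hold only arrays of the high set. Whether less muscle or fibroblast RNA in the acute samples accounts for the collagen falls was not tested. Of 4 leukocyte markers 3 rose in acute colitis and 4 in each later group, and of 4 blood endothelial markers 1 fell in acute colitis (Tek) and 1 rose after 3 cycles and after recovery (Pecam1). Of 5 skeletal muscle markers Ckm fell in acute colitis and Tnnt3 rose after 3 cycles. Of 8 colonic epithelial markers, Slc26a3 was lower in acute colitis, after 3 cycles and after recovery, Krt20 was higher in acute colitis and Epcam lower after recovery. Glia and fat markers passed in none of these comparisons. Beside these marker counts, 11.4% of all probe sets were higher and 11.6% lower in acute colitis. The shares were 3.4% and 3.54% after 1 cycle, 3.08% and 2.51% after 2 cycles, 8.81% and 9.26% after 3 cycles, and 6.05% and 6.61% after recovery. A pass of 1 marker in so short a list is not read as a change of that cell type.

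**Figure D5:**
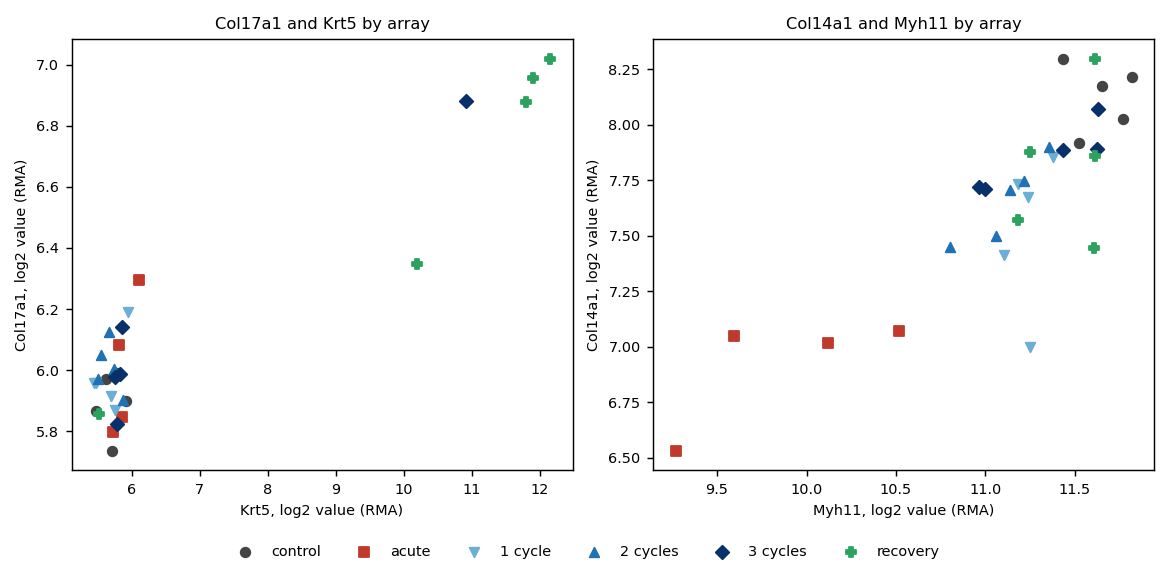
Col17a1 against Krt5 (left) and Col14a1 against Myh11 (right), log2 values of 29 arrays, 1 point per array with a symbol for each group. The arrays high in Krt5 are 4 of recovery and 1 of 3 cycles, and the 4 acute arrays are the lowest in Myh11.

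The acute and chronic states were also set against each other directly. Against the 3 chronic groups averaged, 8 collagens were lower and 0 higher in acute colitis, beside 5.66% and 6.6% of all probe sets. The 8 were Col14a1 (1.7-fold), Col12a1 (1.63-fold), Col15a1 (1.37-fold), Col6a1 (1.36-fold), Col1a2 (1.3-fold), Col6a4 (1.3-fold), Col6a2 (1.26-fold) and Col6a3 (1.22-fold). Col6a3 thus passed here though not against controls, and its call was lost with array weights and without B2 or B4. Col1a1 was 1.18-fold lower and did not pass (adjusted p = 0.124). Each of the other 7 calls was kept in all alternatives and without any single array. By limma, 9 of 44 had an unadjusted p under 0.05 in this comparison, and all 7 smooth muscle markers were lower here too.

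No collagen passed for 2 or 3 cycles against 1 cycle, or for recovery against 2 cycles. Other pairs of these groups were not compared. Against 1 cycle, the groups with 2 and 3 cycles differ in DSS percentage as well as in cycle number. The part of each was not tested. For 2 cycles against 1 cycle 0 collagens were higher or lower (0% and 0.0225% of all probe sets), and 1 had an unadjusted p under 0.05 by limma. For 3 cycles against 1 cycle the count was again 0 (1.12% and 0.648% of all probe sets), with 16 collagens at an unadjusted p under 0.05, 2 passing with array weights, and a positive difference in 40 of 44 with a median of 0.14. All 1-cycle arrays are of the low set and all 3-cycles arrays of the high set, and with the set in the model 1 collagen had an unadjusted p under 0.05, 21 of 44 were positive and the median was -0.02. Recovery against 2 cycles gave 0 either way (0.259% and 0.0197% of all probe sets), with 2 at an unadjusted p under 0.05. Mean Col1a1 was 9.73 ± 0.13 (SD, n = 5) in the 2-cycles group, against 9.48 ± 0.09 (SD, n = 5) in the recovery group. Of the 11 fibrillar chains, 11 had a positive difference for 3 cycles against 1 cycle, and 6 when the array set was in the model.

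Genes that process, bind and degrade collagens gave the surroundings of these changes. Of 27 measured genes for maturation and crosslinking, 4 rose and 3 fell in acute colitis, 3 rose and 1 fell after 1 cycle, 1 rose and 2 fell after 2 cycles, 3 rose and 1 fell after 3 cycles, and 3 rose after recovery. In acute colitis 11.4% of all probe sets were higher and 11.6% lower, close to the shares of this list. The shares of all probe sets higher and lower were 3.4% and 3.54% after 1 cycle and 3.08% and 2.51% after 2 cycles. They were 8.81% and 9.26% after 3 cycles and 6.05% and 6.61% after recovery. The same shares stand beside the proteoglycan counts below. Lox, the lysyl oxidase that starts crosslinking, rose 2.6-fold in acute colitis, 1.79-fold after 3 cycles and 1.96-fold after recovery (limma adjusted p = 0.0017, 0.0465 and 0.0303). After 3 cycles Lox read 7.52 in G3 and 6.14 to 6.59 in the other arrays. Plod3, a lysyl hydroxylase, rose 1.48-fold in acute colitis. The genes of these lists were not fitted with the array set in the model. P3h2, a prolyl 3-hydroxylase, fell 1.95-fold in acute colitis, 1.64-fold after 1 cycle and 1.77-fold after 2 cycles. Among 10 small proteoglycans that bind fibrils, 6 fell in acute colitis and 0 rose, led by Ogn (4.92-fold), Aspn (4.23-fold) and Lum (2.04-fold), and after 3 cycles 2 rose and 2 fell. Bgn, the proteoglycan biglycan, rose after 2 cycles (1.31-fold), 3 cycles (1.29-fold) and recovery (1.35-fold).

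Of 10 collagen receptors, 4 fell and 1 rose in acute colitis (11.6% and 11.4% of all probe sets), where the integrin chain Itga1 was 1.55-fold lower and Lair1, an inhibitory receptor of leukocytes, 1.7-fold higher. Among 11 genes of collagen breakdown 5 rose and 3 fell in acute colitis, beside the same shares. Mmp13, a collagenase that cuts fibrillar collagen, rose 14.8-fold in acute colitis, 3.44-fold after 1 cycle and 2.88-fold after 3 cycles, and Timp1, an inhibitor of such enzymes, rose 4.85-fold in acute colitis. Mmp14, a membrane-bound collagenase, rose 1.57-fold in acute colitis, 1.28-fold, 1.3-fold and 1.4-fold after 1, 2 and 3 cycles and 1.36-fold after recovery. In the whole list 2, 2, 4 and 2 genes rose and 0 fell after 1, 2 and 3 cycles and recovery. Of all probe sets 3.4%, 3.08%, 8.81% and 6.05% were higher and 3.54%, 2.51%, 9.26% and 6.61% lower in these comparisons. Mmp13 in acute arrays was 7.75, 11.27, 9.90 and 8.11, with B3 highest, the array that was also highest in Col4a1.

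Chains of 1 molecule varied together to different degrees between mice of the same group. After subtraction of the group means, Pearson's r over 29 arrays was 0.87 for Col1a1 with Col1a2, 0.90 for Col4a1 with Col4a2, 0.78 for Col6a1 with Col6a2, 0.60 for Col6a1 with Col6a3 and 0.54 for Col5a1 with Col5a2, whereas the median over all 946 pairs of collagens was 0.27. Col6a1 went with Col14a1 (r = 0.72) but little with Col1a1 (r = 0.19), and Col6a4 with Col6a5 gave r = -0.17. These values are descriptions, since the points share tissue pieces and arrays. The 5 genes outside the collagens whose residuals were most like those of Col1a1 were Mmp14 (r = 0.85), Sparc (0.79), Adamts12 (0.77), Stat6 (0.77) and Arhgef2 (0.74). For Col17a1 they were Tmprss11b, Slc26a9, Adam28, Clca2 and Lypd3 (r = 0.921 to 0.925). The SD of Col17a1 was 0.50 in recovery and 0.42 after 3 cycles, and 0.08 to 0.23 in the other groups. Its r values thus rest largely on the recovery and 3-cycles arrays.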

How the data were processed

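Total RNA of snap frozen colon from single mice was hybridised to Affymetrix Mouse Gene 1.0 ST arrays. Per the labels, RMA was run in R 2.12.2, and the authors deposited its output, a log2 value for each probe set in each array. RMA brings all arrays to 1 distribution, so that a shift shared by most genes of a sample is not seen. The genome build behind the probe sets is not given in the sources used here. All 35511 probe sets of 29 arrays were used without filter or further normalisation, and 0 columns of values were left out. Groups came from the labels. Gene symbols are those of the array's annotation (1621 probe sets have several symbols and 12101 have none), and all 44 collagens matched RefSeq by Entrez identifier with 0 differing symbols. No background level is given beside these values, and precision is limited by the number of arrays.

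Groups were compared in limma 3.58.1 (R 4.3.3), with 1 mean per group and 1 moderated spread per probe set. Benjamini-Hochberg adjustment took all probe sets of a comparison together. The steps were tested on simulated data. The members, classes, gene lists and tests were chosen with earlier results of these data known. Of the lists, Fkbp10, Adamts2, Loxl2 and Gp6 had no probe set with that single symbol. Values in every array were given for 16 core collagens and for any that passed with a fold above 2, other passing collagens were named with their fold, and up to 3 genes were named per pathway list. Alternatives were to fit just the groups under comparison, to block on the label's letter, to weight arrays, to use limma's trended robust prior, to drop dim probe sets (17756 kept), to centre or quantile normalise the arrays again, to take the array set as a covariate or the low set alone, to average all probe sets of a gene, and to leave out each array in turn. These alternatives were run for the collagens, and the calls of pathway and marker genes come from the fit of all arrays alone. Promoter windows are those of RefSeq (GRCm38.p6).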

Additional observations from a re-analysis of the deposited data

Results flagged for a closer look

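Of 102 groups of 4 or 5 arrays (17 collagens in 6 groups), 8 had 1 array far from the rest by Dixon's criterion, where chance gives about 1 in 20. In acute colitis these were B2 for Col1a2 (8.97, the next array 9.34) and Col18a1 (7.28, next 7.87), and C3 for Col14a1 (6.53, next 7.02). In the chronic groups they were K1 for Col5a2 after 1 cycle (7.06, next 6.74), K2 for Col17a1 after 1 cycle (6.19, next 5.96), E2 for Col15a1 after 2 cycles (7.40, next 7.57) and D4 for Col8a1 after 2 cycles (6.80, next 7.16). After recovery it was M1 for Col1a2 (9.72, next 9.52).

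The effect of acute colitis differed from the mean effect of 1, 2 and 3 cycles for 8 collagens, tested as a contrast in limma. The acute minus chronic difference on the log2 scale was -0.38 for Col1a2, -0.46 for Col15a1, -0.44 for Col6a1, -0.34 for Col6a2, -0.28 for Col6a3, -0.38 for Col6a4, -0.70 for Col12a1 and -0.77 for Col14a1.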

How the results depend on the processing

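The report holds 67 passes of a collagen in a comparison, of which 18 were kept in all alternatives that could be run, 48 without any single array, and 17 in both. The array set as a covariate lost 35 of 67, including 14 of the 16 rises after 3 cycles and all 13 after recovery, and the low set alone lost 17 of the 28 it could test, with fewer arrays. The fit of the compared groups lost 10, array weights 2, centring 1 and repeated quantile normalisation 1, while the letter block, the trended prior, the mean of all probe sets and leaving out dim probe sets (64 tested) lost 0. The 1 change of sign was Col24a1 after 3 cycles, at -0.012 with the array set. The causes were not tested.

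Against 5 higher and 6 lower in acute colitis, the counts were 2 higher with only the groups compared, 9 higher with the letter block or without dim probe sets, 8 higher after centring, and 2 higher and 2 lower in the low set. After 1 cycle the low set gave 3 higher, and the compared groups alone 1 lower. After 2 cycles 4 were higher with the array set and 2 in the low set, and 2 were lower with the letter block or without dim probe sets and 0 in the low set. After 3 cycles the array set gave 2 higher and 0 lower, and the compared groups alone 0 lower. After recovery the array set gave 0 higher and 0 lower, and the compared groups alone 0 lower. Array weights gave 2 higher for 3 cycles against 1 cycle.

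With each array left out in turn, acute colitis had 4 to 12 higher (12 without B2), 1 cycle 1 to 2 lower (1 without A1 or K3), 2 cycles 1 to 2 lower (2 without D5, K3 or M5), and recovery 6 to 14 higher (7 without A1, 8 without A5, 6 without M1) and 1 to 2 lower (2 without M5). Acute colitis against the chronic mean had 0 to 1 higher (1 without B2), and recovery against 2 cycles 0 to 1 higher (1 without M5). No paired analysis was possible because each mouse belongs to 1 group and the label numbers do not pair mice.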
